A study of Homo sapiens with 4 samples.

Results

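The acyl-CoA thioesterases examined here are ACOT1, ACOT2, ACOT4, ACOT7, ACOT8, ACOT9, ACOT11 and ACOT13. They were taken by symbol from the deposited table of normalised read counts, in which all 8 were found among 56832 genes. The rule names the genes and uses no measured value, though results of these data were known when the genes were chosen. RNA came from A375, an established human melanoma line labelled as wild type and kept in DMEM with 10% fetal bovine serum. One group received 1 mM octanoate, a saturated medium-chain fatty acid, and the other received isopropanol, its vehicle, and both were collected after 48 h. Each group has 2 libraries of total RNA. The series is described as a search for genes that go up with treatment and for gene signatures. The labels do not say whether the libraries came from separate cultures, so p-values measure only the spread between these libraries, which may be technical.

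Acyl-CoA thioesterases cut the thioester bond that joins a fatty acid to coenzyme A, and so release the free acid and the coenzyme. They work against the acyl-CoA synthetases, which use ATP to make that bond. Type I enzymes, among them ACOT1, ACOT2 and ACOT4, have an alpha/beta hydrolase fold, while type II enzymes such as ACOT7, ACOT8, ACOT9, ACOT11 and ACOT13 have a hotdog fold. The enzymes are spread over the cytosol, mitochondria and peroxisomes. In liver and heart, several of them are known as targets of PPARα, a nuclear receptor that responds to fatty acids.

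ACOT1 and ACOT2 are neighbours on chromosome 14 and nearly the same in coding sequence, so their reads are hard to assign. In the GENCODE 29 annotation of GRCh38, ACOT1 (ENSG00000184227) lies on the plus strand of chromosome 14 from 73537114 to 73543794. ACOT2 (ENSG00000119673) follows on that strand from 73567620 to 73575658, and ACOT4 (ENSG00000177465) from 73591706 to 73596496. Over the 1263 coding bases of ACOT1, 1250 were identical in ACOT2 and 13 differed, an identity of 99.0%, with 466 bases in a row that were the same. Identity with ACOT4 was lower, at 77.0% for ACOT1 and 77.3% for ACOT2. The 120 bases shown next, an unbroken genomic stretch that holds 4 of the 13 differences, show how little there is to tell ACOT1 and ACOT2 apart. Both lie within a coding exon on the plus strand, at chr14:73537670-73537789 for ACOT1 and chr14:73569675-73569794 for ACOT2, and capitals mark the bases that differ.
ACOT1: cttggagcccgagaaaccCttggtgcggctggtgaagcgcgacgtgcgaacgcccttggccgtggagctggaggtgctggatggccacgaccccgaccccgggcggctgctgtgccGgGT
ACOT2: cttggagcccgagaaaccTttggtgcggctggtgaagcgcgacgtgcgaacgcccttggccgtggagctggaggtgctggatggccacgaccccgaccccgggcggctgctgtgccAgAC
Counted from the 5′ end of the stretch, with ACOT1's base first, the 4 differences are C19T, G117A, G119A and T120C.

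What ACOT2 has alone is a leading coding stretch of 186 bases, which ACOT1 lacks. ACOT2 protein is known to enter mitochondria by way of its amino-terminal extension, whereas ACOT1 is cytosolic. None of the 137 windows of 50 bases in this stretch occurred in a transcript of another gene (0 windows), so it is shown whole, at chr14:73569241-73569426 on the plus strand of GRCh38.
ACOT2 leading coding bases: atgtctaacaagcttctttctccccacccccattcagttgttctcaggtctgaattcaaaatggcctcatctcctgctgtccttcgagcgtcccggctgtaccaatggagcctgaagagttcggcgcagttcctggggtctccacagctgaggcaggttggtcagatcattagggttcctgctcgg

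**Figure D1:**
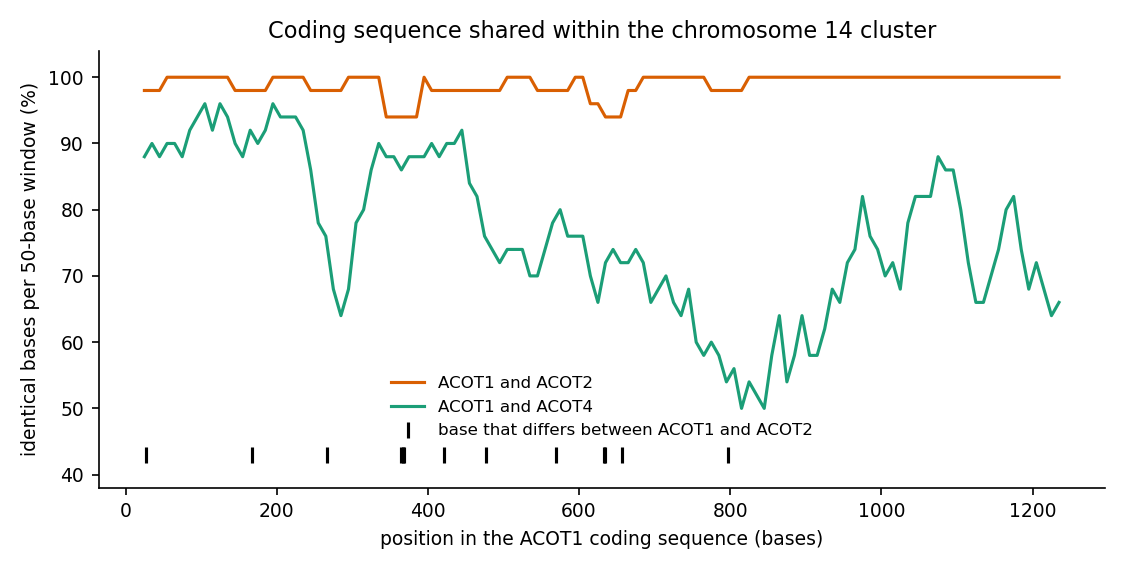
Identical bases (%) in windows of 50 bases along the aligned coding sequence of ACOT1 (x axis, position in bases), against ACOT2 (orange) and ACOT4 (green); black ticks mark the 13 bases that differ between ACOT1 and ACOT2. The orange line stays close to 100% along the whole length and the green line falls well under it, most of all past the middle.

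Across whole transcripts, 54.6% of ACOT1's windows of 50 bases and 33.8% of its windows of 100 bases also occurred in ACOT2. For ACOT2 the shares were 52.6% and 32.6%. A read from such a window does not name its gene, and whether the authors' counting dropped these reads is not given in the sources used here. The sum of both genes was therefore tested beside the single rows. Outside this pair, windows of 100 bases shared with another gene made up 12.9% in ACOT8, 8.18% in ACOT13 and less than that in the other members. Windows were matched on both strands. The windows of ACOT8 were shared with SNX21, and those of ACOT13 with AL031775.1 and C6orf62. These genes overlap the exons of ACOT8 and ACOT13 on the opposite strand.

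To ask whether thioesterase RNA responded to octanoate, log2 values of the normalised counts plus 1 were compared with limma over every gene whose normalised count averaged 10 or more. A gene was called at a Benjamini-Hochberg adjusted p under 0.05. Of the 8 members, 7 could be tested, and only ACOT7 was called, higher under octanoate. The other 6 tested members were not called, and 0 members were lower. Of all 20250 genes tested, 29.9% were called, 16.2% higher and 13.7% lower, so 1 member of 7 is a count with little to read from it. All tested members but ACOT11 had means of at least 100. Of genes with means from 100 to 1000, 38.6% were called, and 38.1% of those at 1000 or more. The median log2 difference over the 7 members was 0.08, against 0.01 over all genes tested, and the median absolute difference was 0.13 against 0.19. The value of 0.19 takes in genes with low means, which are less precise. Their median standard error was 0.24 at means from 30 to 100, against 0.06 at 1000 or more. The groups did not overlap for 5 of the 7 members, 4 of them higher and 1 lower under octanoate, and for 63.1% of all genes tested. An unadjusted p under 0.05 was found for 3 members, ACOT1, ACOT7 and ACOT9. Ranked from the smallest over the 20250 genes tested, ACOT7 stood at 3115, ACOT9 at 7570 and ACOT1 at 7840. Values under 0.05 were therefore common among all genes, and 3 members of 7 is also a count with little to read from it. In bulk RNA, fewer cells that express a gene and less RNA per cell cannot be told apart.

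**Figure D2:**
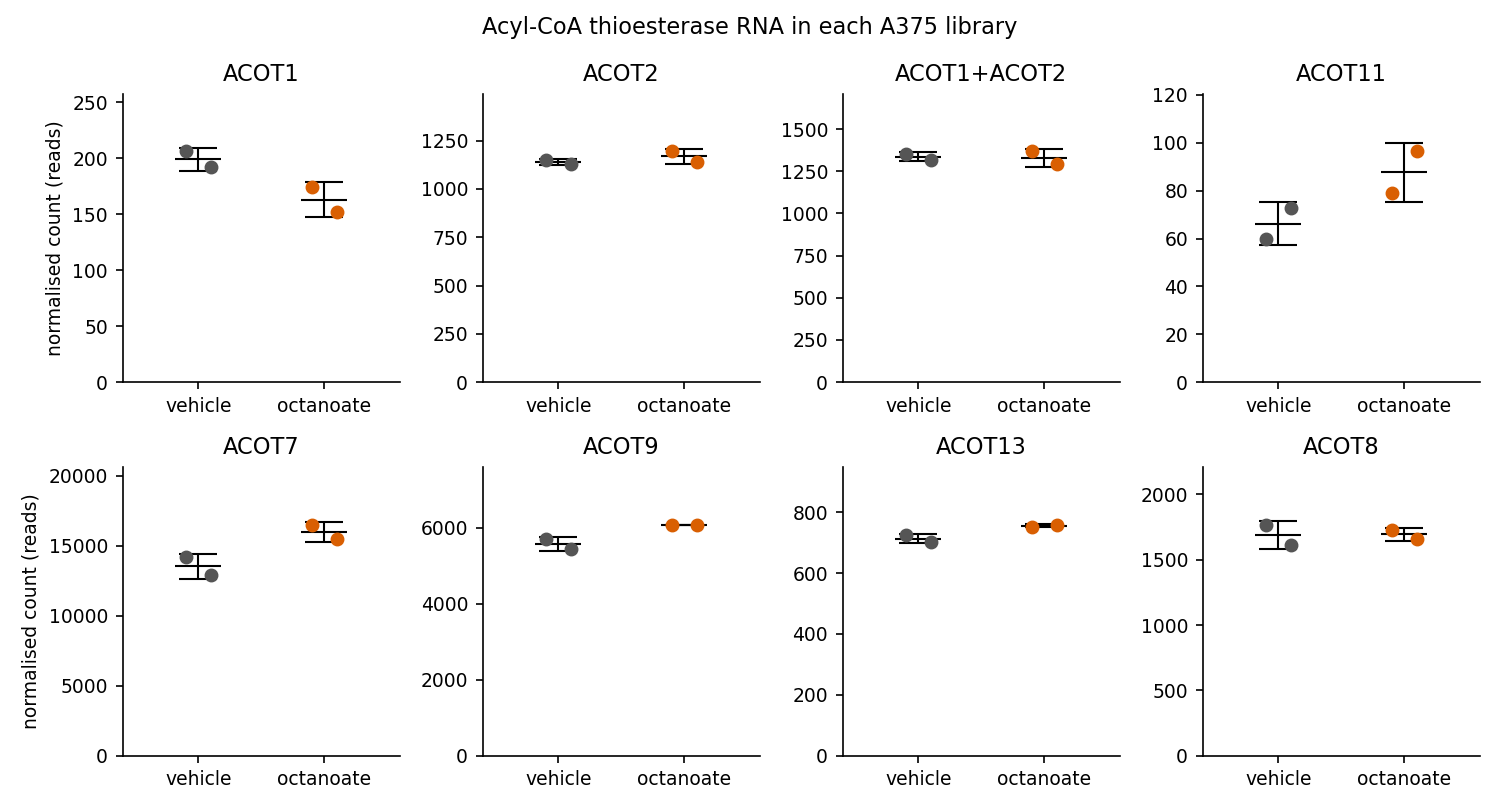
Normalised count (reads, y axis from 0, a separate scale in each panel) of 7 members and of the sum of ACOT1 and ACOT2 in the vehicle libraries (grey) and the octanoate libraries (orange); each point is 1 library, long lines are means and short lines 1 SD (n = 2). ACOT4, at 2 reads in all, is not drawn. The octanoate points lie above the vehicle points for ACOT7, ACOT9, ACOT11 and ACOT13 and below them for ACOT1.

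ACOT7, a cytosolic enzyme abundant in brain that acts on long-chain acyl-CoA such as arachidonoyl-CoA, was the only member called. Its normalised counts were 14166 and 12909 in the vehicle libraries and 16499 and 15474 under octanoate. Both octanoate libraries stood above both vehicle libraries, although the vehicle libraries also differed from each other. The means were 13537 ± 889 and 15986 ± 725 (SD, n = 2), a rise of 18.2% (95% interval from 1.08-fold to 1.29-fold). On the log2 scale the difference was 0.24 with a standard error of 0.06 (limma, adjusted p = 0.00352). The authors' deposited table lists a log2 fold change of 0.24 and an adjusted p of 0.00138 for ACOT7. Counting models on the recovered reads gave an adjusted p of 0.00169 with edgeR and 0.000295 with DESeq2. The call did not hold without vehicle 2 (log2 difference 0.17, adjusted p = 0.0760) or without octanoate 1 (0.19, adjusted p = 0.0610). It was also lost without the filter on low counts (adjusted p = 0.108) and without the intensity trend (adjusted p = 0.167).

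ACOT7 (ENSG00000097021) spans 6264269 to 6394391 on the minus strand of chromosome 1. An antisense gene of the annotation, AL031848.2, shares 837 bases with its exons, 20.3% of their merged length, and the sources used here do not say whether counting used the strand. Of the tested genes next to it, GPR153, an orphan receptor gene, starts or ends 3294 bases away and was higher under octanoate by 0.28 (log2; limma, adjusted p = 0.00281). Without vehicle 2, the GPR153 difference was 0.18 and its adjusted p was 0.101. HES2, a transcription factor gene of the hairy and enhancer of split family, lies 18027 bases away on the other side and was higher by 1.48 (limma, adjusted p = 7.22e-10). The GPR153 call was also lost without the filter and without the intensity trend. As given for all genes tested, 16.2% were higher under octanoate.

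ACOT9, a mitochondrial enzyme for short- to long-chain acyl-CoA, had counts of 5694 and 5436 in vehicle and 6075 and 6064 under octanoate. The octanoate libraries lay above both vehicle libraries and close to each other, with a SD of 7.86 around a mean of 6069. The log2 difference was 0.13 (standard error 0.06, 95% interval 0.01 to 0.24), and it did not pass the adjusted threshold (limma, adjusted p = 0.106). The authors' deposited table gives ACOT9 an adjusted p of 0.137. With the replicate number as a block, a model the labels do not support, its adjusted p was 0.0119. The gene (ENSG00000123130) lies on the minus strand of chromosome X from 23702253 to 23766475. SAT1, the polyamine acetyltransferase gene 16698 bases away, was higher by 0.64 (limma, adjusted p = 1.84e-08), and PRDX4, the tested neighbour on the other side, was not called (0.16, adjusted p = 0.0521).

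For ACOT1 and ACOT2, the pair next to each other on chromosome 14, the summed count showed no difference that passed the test. It was 1355 and 1319 in vehicle and 1369 and 1292 under octanoate. The groups overlapped, with the highest and the lowest value both under octanoate. The log2 difference of the sum was -0.01 (standard error 0.07, 95% interval -0.16 to 0.14), which leaves room for changes from 0.898-fold to 1.10-fold (limma, adjusted p = 0.955). Its sign turned to 0.01 under TMM scaling, and also without vehicle 1 (0.01) or without octanoate 2 (0.03).

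The single rows of the pair differed in direction. ACOT1, the cytosolic enzyme, had counts of 206 and 192 in vehicle and 174 and 152 under octanoate, both octanoate libraries being lower. Its log2 difference was -0.29 (standard error 0.14, 95% interval -0.57 to -0.01), not called (limma, adjusted p = 0.118). The authors' deposited table gives ACOT1 an adjusted p of 0.403. ACOT2, the mitochondrial enzyme, had 1148 and 1127 in vehicle and 1195 and 1140.1 under octanoate, so its groups overlapped, with a log2 difference of 0.04 (standard error 0.07, adjusted p = 0.757 in limma).

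Of the reads given to either gene, the ACOT1 row held 15.2% and 14.5% in the vehicle libraries (95% Wilson intervals 13.4% to 17.2% and 12.8% to 16.5%). Under octanoate it held 12.7% and 11.7% (11.1% to 14.6% and 10.04% to 13.7%). The intervals, which cover counting error only, overlap between all libraries, but such overlap is no test of a difference. Both octanoate shares lay below both vehicle shares. The mean share was 14.9% ± 0.473 against 12.2% ± 0.696 (SD, n = 2), and an exact two-sided permutation test of 2 against 2 gave p = 0.333, the smallest it can give. How far the split between the rows follows the assignment of shared reads was not tested.

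ACOT4, the third gene of the cluster and a peroxisomal enzyme known for hydrolysing succinyl-CoA, was close to undetected. Vehicle 2 held 2 reads and the other libraries 0, a level that allows up to 3 reads, or 2.89 to 3.25 normalised counts in the libraries at 0. No fold is given for it, and it was not tested. The authors' deposited comparison does not list it.

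ACOT8, a peroxisomal enzyme of broad chain length, was level between the groups. Its counts were 1768 and 1615 in vehicle and 1729 and 1658 under octanoate, with the octanoate values inside the range of the vehicle values. The log2 difference was 0.00 (standard error 0.07, 95% interval -0.14 to 0.15; limma, adjusted p = 0.982), and its sign turned under equal column totals and with DESeq2. ACOT8 (ENSG00000101473, minus strand of chromosome 20, 45841721 to 45857406) shares 1489 exon bases, 35.3% of its merged exons, with SNX21 on the opposite strand. SNX21 itself was not called (log2 difference -0.06, adjusted p = 0.548 in limma).

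ACOT11 and ACOT13 were both higher under octanoate in each library, and neither was called. ACOT11, which carries a lipid-binding START domain and is known from brown fat, had 59.9 and 72.7 normalised counts in vehicle and 78.9 and 96.5 under octanoate. Its log2 difference of 0.40 was the largest of the members and the least precise (standard error 0.20, 95% interval -0.01 to 0.81; limma, adjusted p = 0.142). Among genes of its range, with means from 30 to 100, 18.4% were called and the median standard error was 0.24, so differences of this size were not detectable for many genes at this depth. ACOT13, a small enzyme that binds the phosphatidylcholine transfer protein PCTP, had 723 and 703 in vehicle and 753 and 759 under octanoate, a log2 difference of 0.08 (standard error 0.08, adjusted p = 0.490 in limma).

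ACOT11 (ENSG00000162390) lies on the plus strand of chromosome 1 from 54542257 to 54639192, and ACOT13 (ENSG00000112304) on the plus strand of chromosome 6 from 24667035 to 24705065. On the opposite strand, FAM151A covers 7.78% of ACOT11's merged exons. The antisense gene AL031775.1 covers 7.62% of the merged exons of ACOT13. C6orf62 covers 4.67% of them, and was lower under octanoate by a log2 difference of -0.22 (limma, adjusted p = 0.00360). Over the members together, 14 tested genes, ACOT2 among them, were nearest beyond either end of a member. Of these, 3 were higher, 2 lower and 9 not called, where 29.9% of all genes tested were called. Genes that overlap a member, such as SNX21 and C6orf62, were not taken as its neighbours. HEATR4, which overlaps ACOT1, was taken as a neighbour of ACOT2. The 3 higher ones are GPR153, HES2 and SAT1. The 9 not called are RIOX1, ACOT2, HEATR4, TNNC2, ZSWIM3, PRDX4, TTC4, TDP2 and GMNN. SSBP3, next to ACOT11, was lower by -0.41 (adjusted p = 1.75e-05), and DNAL1, next to ACOT2 and ACOT4, by -0.26 (adjusted p = 0.0290). Both calls were lost without the intensity trend. The DNAL1 call was lost when any library was left out, with adjusted p from 0.0557 to 0.155.

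**Figure D3:**
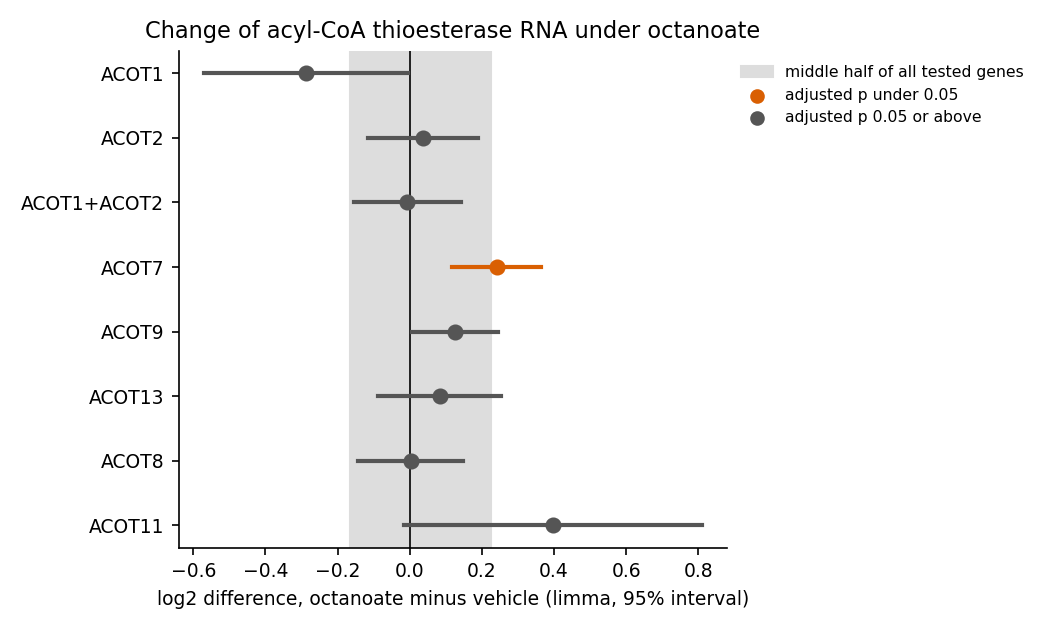
Log2 difference (octanoate minus vehicle, x axis) of each tested member and of the sum of ACOT1 and ACOT2, with 95% intervals from limma; orange marks an adjusted p under 0.05 and the grey band holds the middle 50% of the differences of all genes tested, from -0.17 to 0.22. ACOT7 alone is orange, at 0.24, and ACOT11 and ACOT1 have the widest intervals.

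The members differed far more in level than in response. Per 1000 bases of merged exons, ACOT7 was the highest in vehicle at 3283 ± 216 normalised counts (SD, n = 2), followed by ACOT9 at 1103 ± 36.1. ACOT2 stood at 475 ± 6.40 and ACOT8 at 401 ± 25.6, and then came ACOT13 at 162 ± 3.22 and ACOT1 at 116 ± 5.90. ACOT11 was low at 6.78 ± 0.926 and ACOT4 was near the limit of detection. Under octanoate the order was the same, from ACOT7 at 3876 ± 176 down to ACOT11 at 8.98 ± 1.27. No neighbours in this order overlapped between libraries of the vehicle group.

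Some of this order depends on the length used. A further length, chosen after seeing the data, counted only windows of 100 bases of the principal transcript found in no other gene. The principal transcript, the one with the longest coding sequence, has 1168 bases in ACOT8, against 4213 of merged exons. Only 12.9% of its windows were shared, and the reads counted stayed those of the whole gene. On this length ACOT8 rose, mostly through the shorter transcript, to 1817 ± 116 per 1000 bases. That range, 1735 to 1899, overlapped the range of ACOT9, 1801 to 1887, and lay above ACOT2 at 1008 ± 13.6. On this length, ACOT13 (194 to 200) and ACOT1 (180 to 193) lay close together without overlapping. ACOT7 stayed highest and ACOT11 lowest of the 7 tested members under each of the 3 lengths tried. Together the 8 members held 23765 and 22057 normalised counts in vehicle and 26503 and 25342 under octanoate, most of them from ACOT7.

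**Figure D4:**
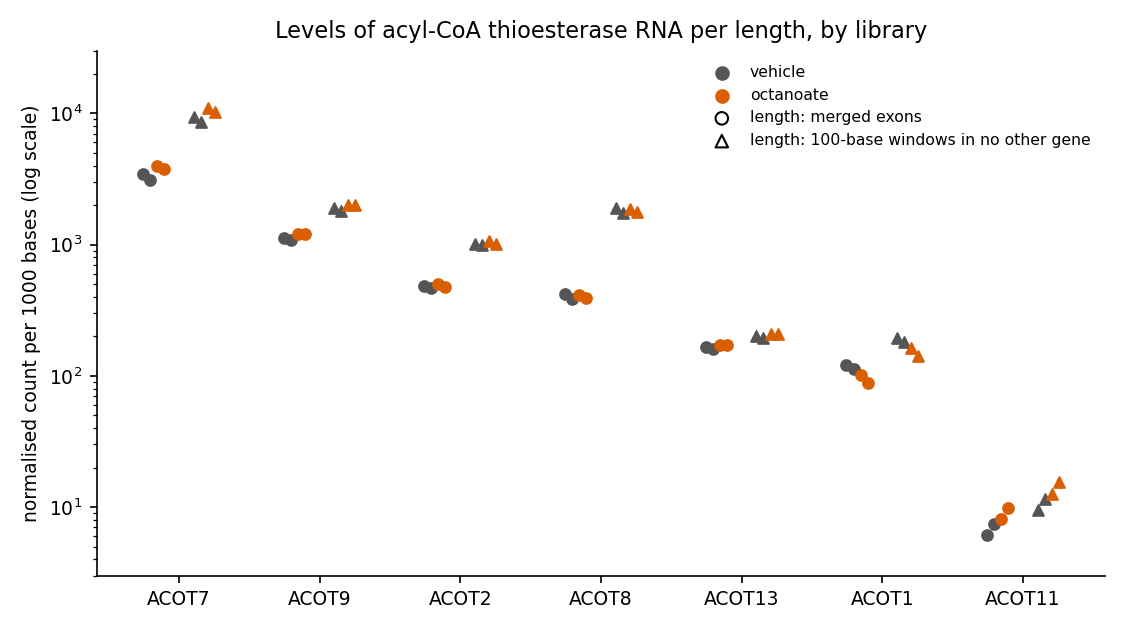
Normalised count per 1000 bases (y axis, log scale) of the 7 tested members in each library, vehicle in grey and octanoate in orange. Circles use merged exons as the length and triangles the 100-base windows of the principal transcript found in no other gene. ACOT7 is highest and ACOT11 lowest on both lengths, while ACOT8 moves above ACOT2 with the triangles.

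The genes with a pattern most like that of ACOT7 were sought among 13481 tested genes with a mean of at least 100, by the Euclidean distance of the 4 library values, each on the log2 scale less the vehicle mean. CASKIN1 (distance 0.00849), NINJ1 (0.0128) and CAMLG (0.0159) were closest, and 450 genes lay within 0.1. For the sum of ACOT1 and ACOT2, DEGS1 (0.00650), SEC11A (0.00852) and CDS2 (0.0123) were closest, with 1736 of 13480 genes within 0.1. With so many genes that near, the order within 4 libraries separates few of them.

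Of 6 further acyl-CoA thioesterases, 4 were tested, with 0 higher, 1 lower and 3 not called, and a median log2 difference of -0.10. Beside this list and those that follow stands the share over all genes tested, 29.9% called, 16.2% higher and 13.7% lower. It was 38.6% for means from 100 to 1000 and 38.1% for means of 1000 or more. THEM4, a mitochondrial thioesterase that is also known to bind the kinase AKT, fell from 4042 and 3999 to 3639 and 3503 (log2 difference -0.17, standard error 0.06; limma, adjusted p = 0.0324). This call was lost without any single library (adjusted p from 0.0628 to 0.219), under TMM scaling, without the filter and without the trend. ACOT12, an acetyl-CoA hydrolase known from liver, was under the filter, with 3 reads in each vehicle library and 16 and 8 under octanoate. ACOT6, next in the type I family, had 1 read per library. THEM5, THEM6 and BAAT, the bile acid conjugating enzyme, were not called.

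Of 13 genes for other thioesterases and the partner PCTP, all tested, 3 were higher, 4 lower and 6 not called, with a median log2 difference of -0.15. FASN, the fatty acid synthase, whose thioesterase domain releases palmitate, fell from 62654 and 61104 to 48381 and 45858 (log2 difference -0.39, standard error 0.06; limma, adjusted p = 1.82e-05). LYPLA2, an acyl-protein thioesterase, was lower by -0.33 (adjusted p = 0.000180), ABHD17B, a depalmitoylase, by -0.27 (adjusted p = 0.00194), and PPT2, a lysosomal thioesterase, by -0.32 (adjusted p = 0.00314). Without the intensity trend no gene of this list was called (0 higher, 0 lower), and LYPLA2, PPT2 and ABHD10 also lost the call without the filter. Without vehicle 1 the PPT2 difference was -0.22 (adjusted p = 0.108). ABHD17C, another depalmitoylase that the table lists as FAM108C1, was higher by 0.39 (adjusted p = 1.06e-05). PCTP, the partner of ACOT13, rose from 1559 and 1456 to 1905 in both octanoate libraries (log2 difference 0.34, standard error 0.07; limma, adjusted p = 0.000511). ABHD10, a mitochondrial hydrolase, was higher by 0.21 (adjusted p = 0.0109), and lost the call without vehicle 1 (0.16, adjusted p = 0.128) or without octanoate 1 (0.17, adjusted p = 0.114).

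Of 26 acyl-CoA synthetases, which make the substrates of the thioesterases, 18 were tested, of which 6 were higher, 2 lower and 10 not called, with a median log2 difference of 0.07. Over all genes tested, 29.9% were called. ACSL3, a long-chain synthetase found on lipid droplets, was higher by 0.90 (limma, adjusted p = 1.56e-11), and ACSL4, which favours arachidonate, by 0.53 (adjusted p = 6.53e-08). ACSS1, the mitochondrial acetyl-CoA synthetase, was lower by -0.65 (adjusted p = 1.05e-07). AACS, which activates acetoacetate, was lower by -0.23 (adjusted p = 0.00541), and by -0.19 without vehicle 1 (adjusted p = 0.0788). Of 17 genes of coenzyme A synthesis, transport and breakdown, 15 were tested, of which 1 was higher, 3 lower and 11 not called, with a median of -0.03. PANK1, a pantothenate kinase at the first step of coenzyme A synthesis, was lower by -0.51 (adjusted p = 8.04e-05) and SLC25A42, the mitochondrial coenzyme A carrier, by -0.37 (adjusted p = 0.00164). PANK2 was lower by -0.27 (adjusted p = 0.00312), with adjusted p of 0.0930 without vehicle 1 and 0.0655 without octanoate 2. PANK4 was higher by 0.26 (adjusted p = 0.00337). Of 6 acyl-CoA binding genes, all tested, ACBD4 was higher by 0.46 (adjusted p = 0.000659) and 5 were not called. The calls of ACBD4, AACS and PANK2 were lost without the filter and without the intensity trend. Those of SLC25A42 and PANK4 were lost without the trend.

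Of 17 PPAR receptors, RXR partners and familiar PPAR targets, all tested, 11 were higher, 2 lower and 4 not called, with a median log2 difference of 0.45. The share called over all genes tested was 29.9%. ANGPTL4, an inhibitor of lipoprotein lipase, was higher by 5.22 (limma, adjusted p = 3.07e-19), FABP4, a fatty acid binding protein, by 6.68 (adjusted p = 4.21e-17) and CREB3L3, a membrane-bound transcription factor, by 3.36 (adjusted p = 3.84e-17). The receptors PPARA and PPARD were not called. PPARG was lower by -0.16 (adjusted p = 0.0397) and lost the call without any single library (adjusted p from 0.0641 to 0.208) and under TMM scaling. RXRA was lower by -0.21 (adjusted p = 0.0128), with adjusted p of 0.0994 without vehicle 2 and 0.159 without octanoate 2. PPARG and RXRA also lost the call without the filter and without the intensity trend. Whether the thioesterases differ from the PPAR targets in response was not tested.

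**Figure D5:**
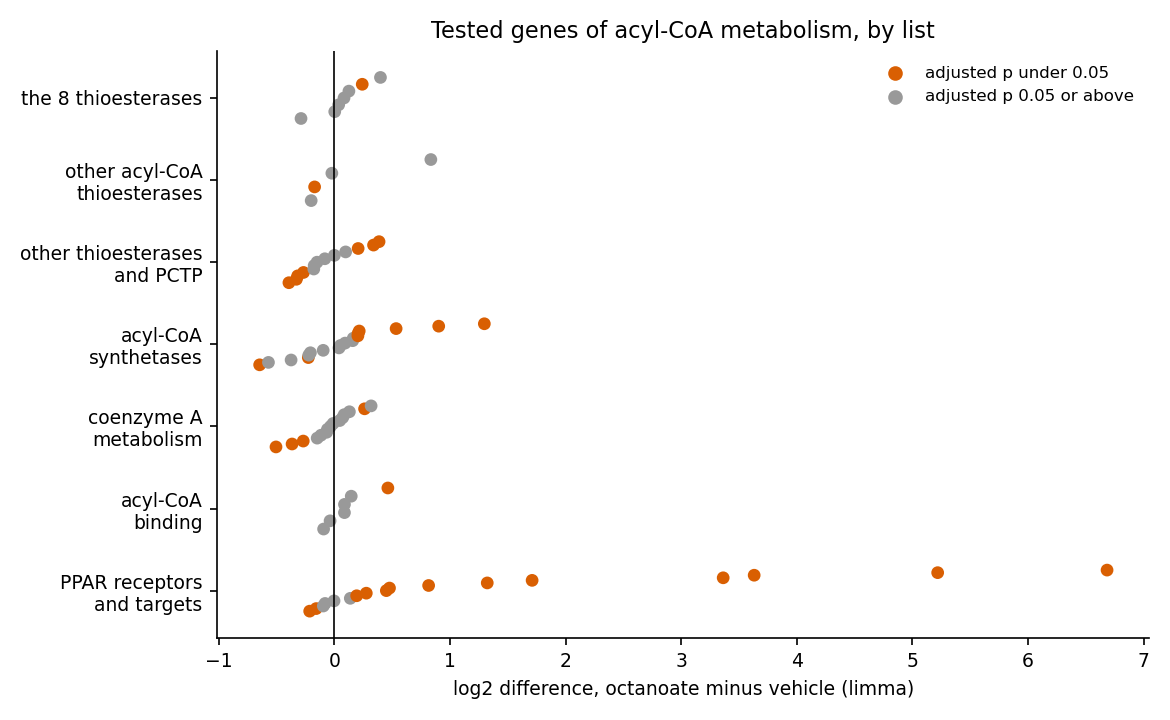
Log2 difference (octanoate minus vehicle, x axis) of each tested gene of the thioesterases and of 6 related lists; each point is 1 gene, orange where limma gave an adjusted p under 0.05, and points are spread vertically only to be seen. The 7 tested thioesterases lie between -0.29 and 0.40, and points of the PPAR list reach 6.68.

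The libraries held 67785956 to 78005035 recovered reads. Of 11 melanoma lineage markers, SOX10 (34072 to 41363 normalised counts), CSPG4 and MCAM were abundant, while TYR stood at 1.93 to 3.93 and PMEL, MLANA, TYRP1 and DCT were low. MITF, the regulator of melanocyte genes, fell from 3533 and 3330 to 2414 and 2511 (log2 difference -0.48; limma, adjusted p = 2.33e-06). S100B, a calcium-binding protein used as a melanoma marker, fell from 4234 and 3741 to 1917 and 1746 (-1.12, adjusted p = 9.15e-12). Of the 10 tested, TYR being under the filter, 3 were higher under octanoate, 2 lower and 5 not called. The share called over all 20250 genes tested was 29.9%. The 3 higher were PMEL (log2 difference 0.55, adjusted p = 0.0289), CSPG4 (0.42, adjusted p = 1.47e-05) and MCAM (0.19, adjusted p = 0.0184), all in limma. The summed level of 11 markers of other cell types was 1104 to 1286 in vehicle and 478 to 535 under octanoate, and KRT1 and APOA1 were at 0. Most of the vehicle sum was KRT14, and without it the sum was 163 to 176 in vehicle and 260.1 to 270 under octanoate. KRT14, a keratin, fell (log2 difference -2.08; limma, adjusted p = 2.40e-13) and PECAM1, an endothelial adhesion gene, rose (0.95, adjusted p = 1.05e-05). The part of these markers in the thioesterase values was not tested.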

How the data were processed

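RNA of 4 A375 libraries was sequenced. The normalised counts deposited by the authors are a signal per gene and library. Per the submitters' processing notes, bcl2fastq 2.17, Trim Galore, STAR 2.4, Picard, HTSeq 0.9.1 and DESeq2 were used with hg38. The annotation, strand setting and counting of shared reads are not given in the sources used here. All values (100%, tolerance 1e-06) were whole multiples of the value of 1 read, so reads were recovered. Of the authors' deposited comparison, the columns used hold log2 fold changes, standard errors, test scores, p-values and adjusted p-values, for 33533 genes, of which 4329 have an adjusted p under 0.05. It lists 7 members, with 1 under 0.05.

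Log2(normalised count + 1) was fitted with limma 3.58.1 (R 4.3.3), with an intensity trend and treatment as the only term, over 20250 genes with a mean of at least 10. P-values were two-sided and adjusted over those genes by the Benjamini-Hochberg method. The pseudocount understates changes of low genes. For the sum of ACOT1 and ACOT2, 1 row replaced both. Replicate libraries were further apart than sampling noise (chi-square per degree of freedom 5.28 in vehicle and 7.31 under octanoate) and were kept apart. Places, lengths and shared windows came from GENCODE 29, read with Python 3.11.15 and Biopython 1.88. GENCODE coordinates are of GRCh38, the assembly also called hg38.

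All 8 members were named, with the sum of ACOT1 and ACOT2. Of each list, the 3 called genes with the smallest p and any gene counted among 5 or fewer were named, as were the nearest tested neighbours and the 3 genes of most similar pattern. C6orf62, SNX21, MITF, S100B, KRT14 and PECAM1 were chosen after their values were seen. The members and lists were chosen with earlier results of these data known. The alternatives tried were no filter, a minimum mean of 50, pseudocounts of 0.5 and 5, TMM scaling, equal column totals, no trend, a replicate block, leaving out each library, edgeR 4.0.16 and DESeq2 1.42.0 on recovered reads, the mean log2 value of ACOT1 and ACOT2 in place of their sum, and other lengths. The fits were tested on simulated data, but that test set a limit only on limma estimates for changes larger than those of the members.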

Additional observations from a re-analysis of the deposited data

How the results depend on the processing

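The count of thioesterase genes called higher was 1 in 9 of 14 alternatives, and the count called lower was 0 in each of the 14. No thioesterase gene was called higher without the filter on low counts (0) or without the intensity trend (0), and 2 were called with the replicate block, ACOT7 and ACOT9. Leaving out a library gave 0 to 1. The replicate numbers are not shown to pair the libraries, since the labels do not say what they mark and there are only 2 pairs (correlation of deviations 0.126); the block raised the count of all genes called from 6048 to 8376. The log2 difference of ACOT1 plus ACOT2 was 0.0079 under TMM scaling and -0.0490 to 0.0344 with a library left out. The mean of the log2 values of both genes gave -0.13. That of ACOT8 was -0.0044 under equal column totals, -0.0046 with DESeq2 and -0.0623 to 0.0680 with a library left out, and none of these passed the test. Over all genes, 2595 were called among 43449 without the filter, 1625 without the trend, 6480 by edgeR and 4947 of the 16324 to which DESeq2 gave an adjusted p. Genes called lower were 2777, against 1525 without vehicle 1 and 1823 without octanoate 2, and of the genes that passed the filter, 1595 were called higher and 983 lower in the fit without it. The share of calls that were higher was 54.1%, against 67.4% without the trend and 64.5% without vehicle 1. ACOT4 was too low to test, and ACOT11 had the widest interval of the members. Genes with means from 10 to 30 had a median standard error of 0.42, and 9.06% of them were called.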

Other observations

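The acyl-CoA synthetases higher under octanoate, beyond ACSL3 and ACSL4, were ACSM3, ACSS3, SLC27A1 and SLC27A4, named here after their values were seen. ACSM3, a mitochondrial synthetase of the medium-chain family, had 37.3 and 41.7 normalised counts in vehicle and 109 and 88.9 under octanoate (log2 difference 1.30, standard error 0.21; limma, adjusted p = 5.03e-05). Both octanoate libraries lay above both vehicle libraries, and the call was lost in 0 of 14 alternatives. SLC27A4, a fatty acid transport protein with synthetase activity, was higher by 0.21 (adjusted p = 0.0155), SLC27A1 of that family by 0.20 (adjusted p = 0.0328), and ACSS3, a mitochondrial short-chain synthetase, by 0.21 (adjusted p = 0.0253). The calls of SLC27A4, SLC27A1 and ACSS3 were lost without the filter and without the intensity trend. Without vehicle 2 the adjusted p was 0.195 for SLC27A4 and 0.330 for SLC27A1, and without octanoate 1 it was 0.103 and 0.231. For ACSS3 it was 0.0785 to 0.122 with any library left out.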
